A study of Mus musculus with 4 samples.

Results

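The 36 genes described here encode aminoacyl-tRNA synthetases, 20 of the cytosol and 16 of the mitochondrion. They were taken by symbol from the 24441 gene symbols of the deposited expression tables, and the mitochondrial ones are those whose symbol ends in 2. RNA sequencing was done on sorted Langerhans cells, the dendritic-like immune cells that live among the keratinocytes of the epidermis, from mice 4 weeks old. One group, named Tfam cKO in the labels, came from CD11cCreTfamfl/fl mice, in which Cre under the CD11c (Itgax) promoter acts on floxed alleles of Tfam in CD11c-expressing cells. The other group was wild type (WT), and the labels do not say whether those mice carried the Cre transgene or the floxed alleles. Each group had 2 libraries, and no label ties a library to particular mice, so p-values measure the spread between these libraries, which may be technical.

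Each synthetase joins an amino acid to its tRNA, the step that sets the genetic code before the ribosome is reached. Cytosolic and mitochondrial protein synthesis mostly use separate enzymes, all encoded in the nucleus, and the mitochondrial set serves the tRNAs transcribed from mitochondrial DNA, whose packaging and transcription need TFAM. When charged tRNA runs short, the kinase GCN2 (Eif2ak4) raises translation of the transcription factor ATF4, and many genes of cytosolic synthetases, together with Asns, are known ATF4 targets. ATF4 also responds to mitochondrial stress in other mammalian cells. Phenylalanyl-tRNA synthetase of the cytosol has 2 subunits (Farsa, Farsb), Eprs carries both the glutamyl and the prolyl enzyme, and the single genes Gars and Kars serve both compartments.

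Levels are in FPKM, fragments scaled to transcript length and to the mapped total of the library, and can be compared between genes because they are per length. Summed FPKM lay between 338783 and 395707 per library, and total read numbers are unknown. Read as counting error alone, the Cufflinks 95% intervals correspond to between 52 and 2724 fragments per value. This holds for the 33 synthetases that reached a mean of 1 FPKM and were tested. Tfam itself was at 1.65 and 1.53 FPKM in Tfam cKO, against 3.17 and 1.61 FPKM in WT, so the library labelled WT 2 was at the level of both Tfam cKO libraries. A gene-level value can hold reads from outside the deleted part, and every direction below rests on the labels. All 8 Langerhans cell markers, including Cd207 and Epcam, were present, with summed levels of 26036 and 20275 FPKM in Tfam cKO and 22818 and 23259 FPKM in WT. Cd74, H2-Ab1 and H2-Aa made up most of these sums. Of the 8 markers, 6 had a negative log2 fold change, and none passed the test below. Groups did not overlap, with Tfam cKO lower, for Itgax (43.9 and 41.0 against 47.8 and 52.7 FPKM) and Ptprc (50.4 and 52.4 against 61.4 and 59.9 FPKM). All 10 keratinocyte markers were present too, Krt5 and Krt14 among them, with sums of 15721 and 14288 FPKM in Tfam cKO and 15879 and 10744 FPKM in WT, so WT 2 was lowest. Krt5, Krt14 and Krt15 made up most of these sums. Only Krt10 and Krt1 were not lowest in WT 2. Krt10 was at 232 and 671 FPKM in Tfam cKO and 361 and 547 FPKM in WT. Krt1 was at 143 and 184 FPKM in Tfam cKO and 243 and 186 FPKM in WT. Of the 7 dendritic epidermal T cell markers in the tables none was listed at 0 throughout (sums of 152 and 217 FPKM in Tfam cKO and 216 and 243 FPKM in WT). Of 7 macrophage markers, Cd163 and Fcgr1 were at 0 in every library (sums of 226 and 151 FPKM in Tfam cKO and 118 and 116 FPKM in WT). The 3 C1q chains had separate groups with Tfam cKO higher. Adgre1, the macrophage marker of highest mean level, had overlapping groups, at 97.8 and 76.8 FPKM in Tfam cKO and 91.5 and 80.7 FPKM in WT. Mrc1 was near 0, at 0.13 and 0.11 FPKM in Tfam cKO and 0.03 and 0.08 FPKM in WT. The part of other cell types in the results below was not tested, and in bulk RNA fewer cells of a type cannot be told apart from less RNA per cell.

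Cytosolic synthetases were expressed well above mitochondrial ones. The median of the 20 cytosolic genes was 17.2 and 15.6 FPKM in Tfam cKO and 13.3 and 11.3 FPKM in WT. The median of the 16 mitochondrial genes was 3.80 and 4.14 FPKM in Tfam cKO and 4.13 and 2.95 FPKM in WT. The cytosolic medians of the groups thus did not overlap, with Tfam cKO higher, while the mitochondrial medians of the groups overlapped. Over the 4 libraries the highest mean belonged to Nars, the asparaginyl enzyme, at 40.2 FPKM, and the next to the mitochondrial leucyl enzyme Lars2 at 39.6 FPKM. Eprs followed at 30.2 FPKM and the glutaminyl enzyme Qars at 29.9 FPKM. At the low end stood Nars2 at 0.891, Ears2 at 0.731 and Pars2 at 0.173 FPKM, the mitochondrial enzymes for asparagine, glutamate and proline, which did not reach the mean of 1 FPKM needed for the test.

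**Figure D1:**
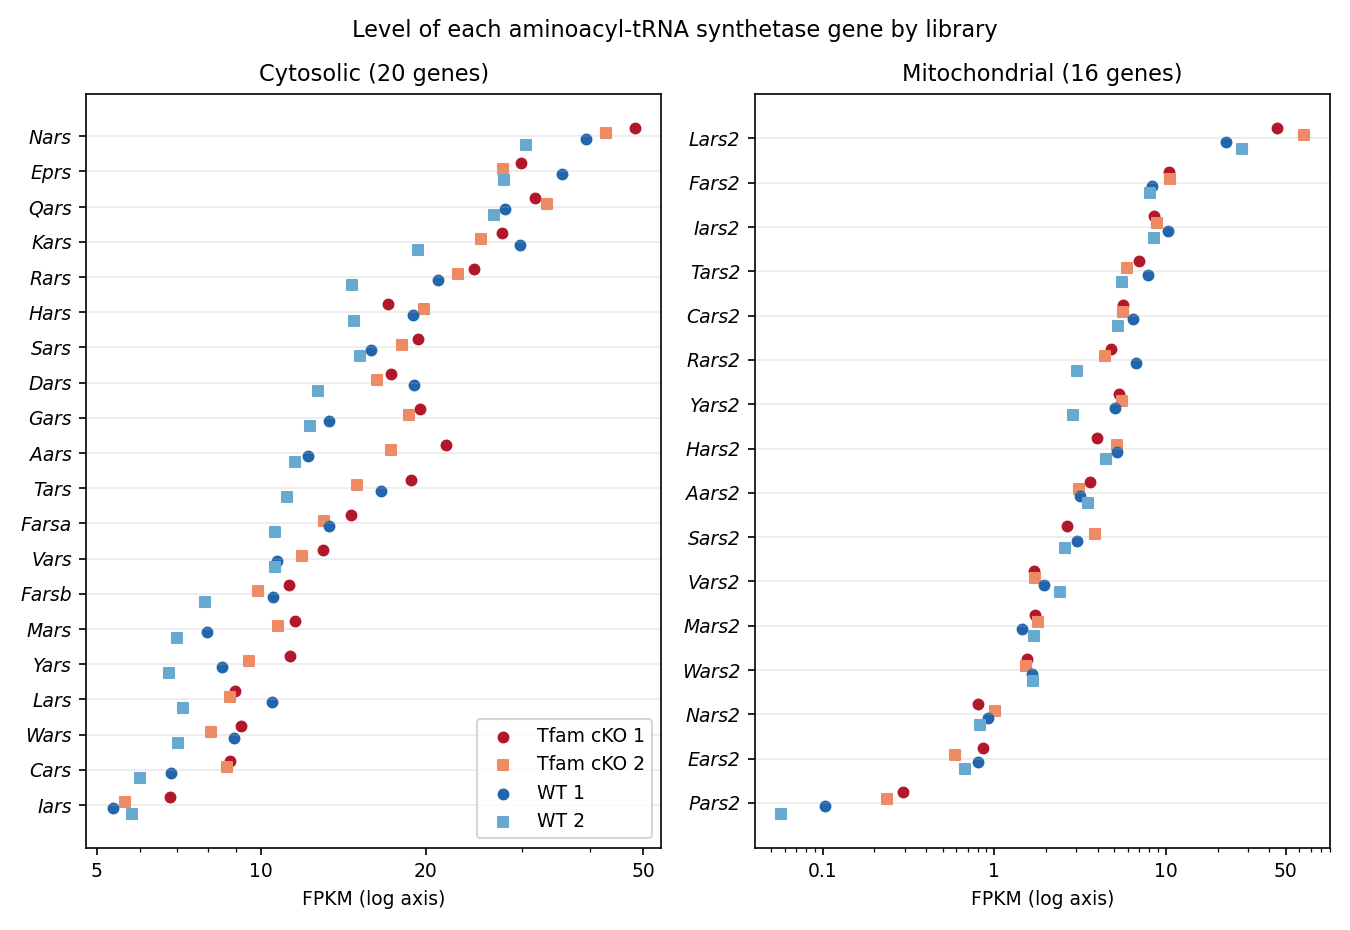
FPKM (log axes, with different ranges) of each of the 20 cytosolic and 16 mitochondrial synthetase genes, 1 point per library, red and orange for Tfam cKO and blue shades for WT. For Aars, Gars and Mars the Tfam cKO points lie to the right of the WT points, and Lars2 stands apart from the other mitochondrial genes.

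When each mitochondrial enzyme was set against the cytosolic one for the same amino acid, the cytosolic gene had the higher mean level in 15 of 17 pairs, Fars2 being paired with both Farsa and Farsb. The exceptions were leucine, with Lars2 at 4.48 times the level of Lars, and isoleucine, with Iars2 at 1.53 times the level of Iars. In both, the mitochondrial gene was above its partner in 4 of 4 libraries. Fars2, at 9.32 FPKM, was close to Farsb at 9.87 FPKM and above it in 2 of 4 libraries. For the other pairs the ratio ranged from 0.00573 for Pars2 over Eprs to 0.761 for Cars2 over Cars.

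None of the 33 tested synthetases passed the test of Tfam cKO against WT (limma with Benjamini-Hochberg adjustment over all genes; lowest adjusted p = 0.334, for Lars2). Over all 10910 genes tested, 0.0183% passed as higher and 0.0% as lower in Tfam cKO. At an unadjusted p below 0.05 there were 4 of 20 cytosolic genes and 1 of 13 mitochondrial genes higher and 0 lower, where 5.01% of all genes were higher and 1.19% lower. The log2 fold change was positive for 19 of the 20 cytosolic and for 7 of the 13 tested mitochondrial genes, against 65.2% of all genes. Its median was 0.22 over the cytosolic genes, 0.01 over the mitochondrial genes and 0.07 over all genes. Groups are called separate where their ranges do not overlap. They were separate with Tfam cKO higher for 10 cytosolic genes and with Tfam cKO lower for 0, which over all genes held for 25.4% (higher) and 9.75% (lower). For the tested mitochondrial genes the same counts were 4 higher and 2 lower. Fold changes here are of log2(FPKM + 1), which understates the change of genes at low levels, the mitochondrial ones above all. With a pseudocount of 0.1 in place of 1, the mitochondrial median was still 0.01 and the cytosolic median 0.24.

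**Figure D2:**
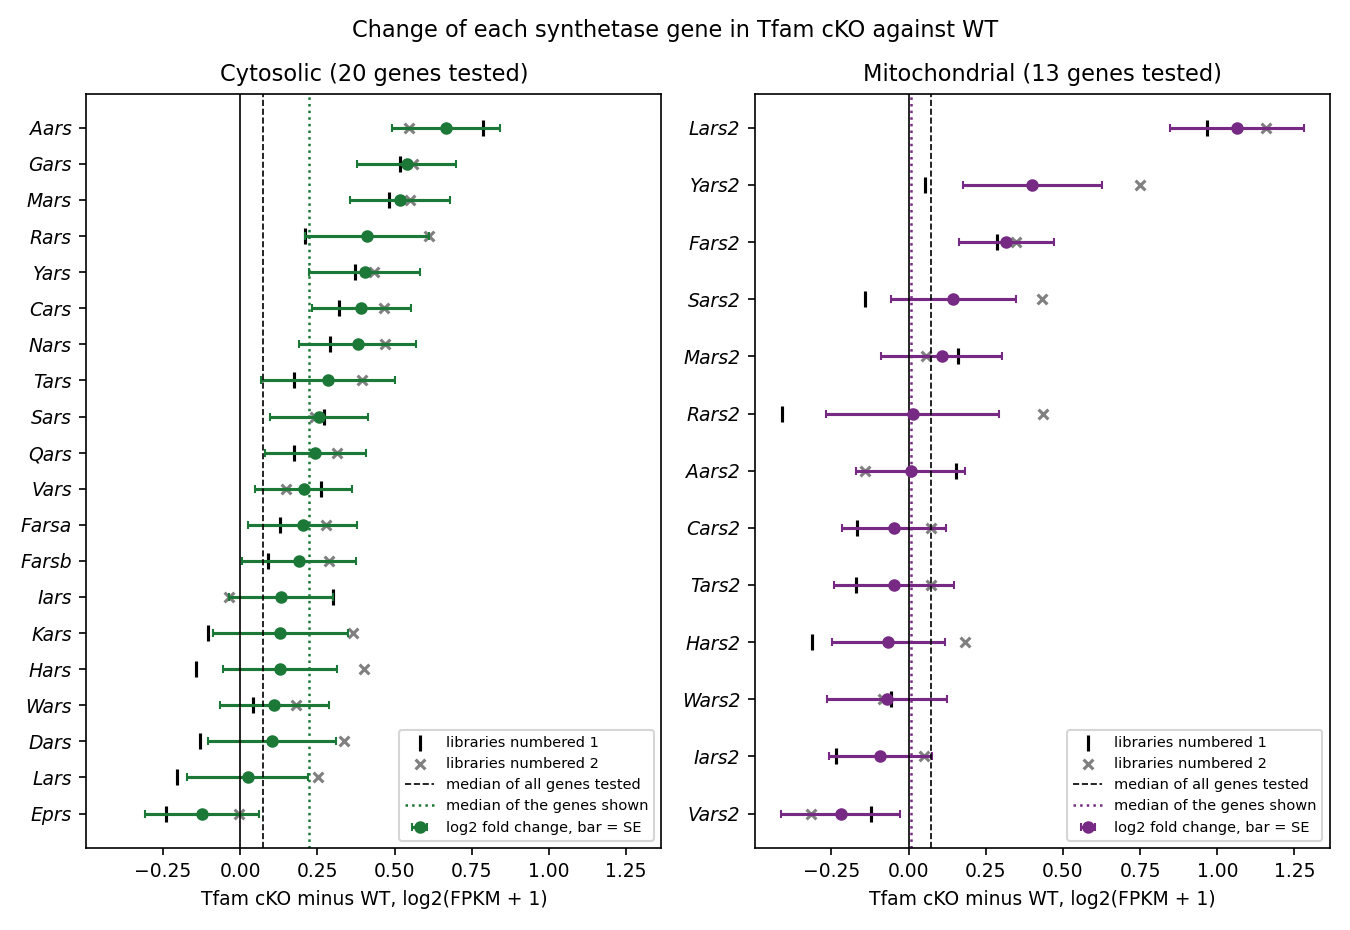
Log2 fold change of FPKM + 1, Tfam cKO against WT, for the 20 cytosolic and the 13 tested mitochondrial synthetases, with the limma standard error as a bar. Black ticks and grey crosses give the difference between the libraries with the same number, the dashed line the median of all genes tested (0.07) and the dotted lines the medians of the genes shown (0.22 and 0.01).

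The largest differences among the cytosolic genes were those of Aars, Gars and Mars, the enzymes for alanine, glycine and methionine. Aars was at 21.8 and 17.3 FPKM in Tfam cKO and at 12.2 and 11.5 FPKM in WT (log2 fold change 0.67, SE 0.18, limma adjusted p = 0.536). The lower Tfam cKO library exceeded the higher WT library by more than the 2 WT libraries differed from each other. Gars was at 19.5 and 18.6 FPKM in Tfam cKO and at 13.3 and 12.3 FPKM in WT (log2 fold change 0.54, SE 0.16, limma adjusted p = 0.583). Mars was at 11.5 and 10.8 FPKM in Tfam cKO and at 7.95 and 7.02 FPKM in WT (log2 fold change 0.52, SE 0.16, limma adjusted p = 0.626). For Gars and Mars the libraries of a group lay close together and the groups did not overlap. The Mars model shares 69 bases with that of Ddit3, a transcription factor gene of the stress response, in the files, and strand-aware counting is not stated. Ddit3 was at 77.7 and 72.9 FPKM in Tfam cKO and at 48.0 and 67.9 FPKM in WT.

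Promoters of the cytosolic genes were searched for the composite element that ATF4 binds together with C/EBP partners, written TGATGNAAN, on both strands of 300 bases around an annotated start (250 before and 50 after, RefSeq, GRCm38.p6). A window was found for 27 of the 36 genes, with Mars matched as Mars1. Those without one were Cars, Hars, Lars, Nars, Rars, Vars, Wars, Hars2 and Pars2. The element was present in 5 of 13 cytosolic genes (38.5%), namely Aars, Gars, Iars, Tars and Yars, and in 0 of 14 mitochondrial genes, against 3.95% of all 32851 windows. Of these 5, Aars, Gars and Yars had separate groups with Tfam cKO higher, whereas Iars and Tars had overlapping groups. Mars, Qars and Sars had separate groups and no match in their windows. A match of letters does not show that the site is bound.

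Not every match found is shown. For each of the 5 genes 1 match is given with 10 bases on each side, on the strand of the gene and with the match in capitals, so that their cores can be compared. Positions count from the annotated start as +1. Of those shown, only the match in Yars reads in the direction of the gene.
Aars (chr8:111033840-111033868, + strand, positions −2 to 27): agcgggtcacTTTTCATCAgagcgctctg
Gars (chr6:55037960-55037988, + strand, −41 to −13): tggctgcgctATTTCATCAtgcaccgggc
Iars (chr13:49682126-49682154, + strand, −4 to 25): cactgtcagtATTGCATCAcctccagacg
Tars (chr15:11399656-11399684, − strand, −26 to 3): caggagtcccGTTGCATCAgctggttagc
Yars (chr4:129189896-129189924, + strand, −7 to 22): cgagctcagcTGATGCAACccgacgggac

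For Gars the 150 bases before the annotated start are given whole (chr6:55037851-55038000, + strand), again with the match in capitals, to show what surrounds the match in a gene with separate groups.
Gars: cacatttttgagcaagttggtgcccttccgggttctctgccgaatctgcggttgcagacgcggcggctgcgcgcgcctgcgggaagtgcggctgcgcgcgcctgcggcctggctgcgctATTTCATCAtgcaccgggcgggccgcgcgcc

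Of the other cytosolic genes with separate groups, the 5 with the largest changes were Rars, Yars, Cars, Nars and Sars. Rars, the arginyl enzyme, was at 24.5 and 22.9 FPKM in Tfam cKO and at 21.1 and 14.7 FPKM in WT (log2 fold change 0.41), so the WT libraries stood far apart. Yars, the tyrosyl enzyme, was at 11.3 and 9.50 FPKM in Tfam cKO and at 8.48 and 6.77 FPKM in WT (0.40). Its model shares 31 bases in the files with that of C77080, which was at 37.5 and 33.7 FPKM in Tfam cKO and at 29.9 and 29.1 FPKM in WT. Cars, the cysteinyl enzyme, was at 8.78 and 8.67 FPKM in Tfam cKO and at 6.84 and 6.004 FPKM in WT (0.39). Nars was at 48.3 and 42.7 FPKM in Tfam cKO and at 39.3 and 30.5 FPKM in WT (0.38), the highest level of the cytosolic set in every library. Sars, the seryl enzyme, was at 19.3 and 18.1 FPKM in Tfam cKO and at 15.9 and 15.2 FPKM in WT (0.26). The limma adjusted p of these genes lay between 0.785 and 0.884. For 3 of them the size of the change rested on which WT library was kept, with 0.16 for Rars, 0.26 for Yars and 0.20 for Nars without WT 2, and 0.66 for Rars without WT 1. Qars, at 31.7 and 33.3 FPKM in Tfam cKO and 28.0 and 26.6 FPKM in WT, and the valyl enzyme Vars, at 13.0 and 11.9 FPKM in Tfam cKO and 10.7 and 10.6 FPKM in WT, completed the 10 genes with separate groups.

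The other 10 cytosolic genes had overlapping groups. Eprs was the only cytosolic gene with a negative log2 fold change (−0.12, limma adjusted p = 0.960; 0.050 without WT 1), at 29.9 and 27.7 FPKM in Tfam cKO and 35.5 and 27.7 FPKM in WT. The remaining 9 ranged in log2 fold change from 0.02 for Lars, the leucyl enzyme, to 0.28 for Tars, the threonyl enzyme. Tars was at 18.8 and 15.0 FPKM in Tfam cKO and at 16.5 and 11.1 FPKM in WT, and its log2 fold change was 0.018 without WT 2 and 0.55 without WT 1. Kars, the lysyl enzyme, was at 27.5 and 25.3 FPKM in Tfam cKO, both between 29.7 FPKM in WT 1 and 19.4 FPKM in WT 2. Wars, the tryptophanyl enzyme and a gene that interferon gamma induces in human cells, was at 9.20 and 8.10 FPKM in Tfam cKO and at 8.92 and 7.03 FPKM in WT. Of 8 tested interferon-induced genes, 1 had separate groups with Tfam cKO higher and 1 with Tfam cKO lower. Over all genes these shares were 25.4% and 9.75%, and none of the 8 passed the test. The 2 of highest level, both of the immunoproteasome, were Psmb8 at 67.2 and 58.7 FPKM in Tfam cKO and 54.2 and 61.2 FPKM in WT, and Psmb9 at 39.7 and 43.7 FPKM in Tfam cKO and 34.8 and 27.7 FPKM in WT.

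WT 2 had the lowest level of the 4 libraries for 18 of the 20 cytosolic genes, for 7 of the 13 tested mitochondrial genes and for 46.0% of all genes tested, and the sum of keratinocyte markers was lowest in WT 2 as well. Without WT 2 the cytosolic median log2 fold change was 0.17, and without WT 1 it was 0.38. Taken between the libraries numbered 1 alone, the cytosolic median difference was 0.19 and that of all genes 0.02. Between the libraries numbered 2, these medians were 0.35 and 0.13. The scale of the libraries also mattered. After rescaling all libraries to equal totals, the cytosolic median was 0.11, the mitochondrial median −0.10 and that of all genes −0.04, and the share of all genes with separate groups became 14.3% higher and 19.8% lower. The same 10 cytosolic genes then still had separate groups with Tfam cKO higher, and Eprs had separate groups with Tfam cKO lower.

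The 12 cytosolic genes commonly given as ATF4 targets had a median log2 fold change of 0.33. Of these 12, 7 (58.3%) had separate groups with Tfam cKO higher, against 25.4% of all genes. The other 8 cytosolic genes had a median of 0.20, with 3 of 8 higher (37.5%). The 8 enzymes of the multi-tRNA synthetase complex, the cytosolic assembly that holds Dars, Eprs, Iars, Kars, Lars, Mars, Qars and Rars on shared scaffold proteins, had a median of 0.13, with 3 higher. The scaffold genes had a median of 0.21. Of these, Aimp1 was at 35.4 and 37.4 FPKM in Tfam cKO and 35.4 and 27.9 FPKM in WT, and Eef1e1 at 17.9 and 13.7 FPKM in Tfam cKO and 16.7 and 10.8 FPKM in WT, so WT 2 was again lowest. By catalytic fold, the 17 tested enzymes of class I had a median of 0.13 and the 15 of class II a median of 0.19, Eprs being left out because it joins both folds. The difference between any of these subsets was not tested.

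Lars2 had the largest difference of all 36 genes. It was at 44.7 and 63.5 FPKM in Tfam cKO and at 22.4 and 27.9 FPKM in WT, an average of 54.1 ± 13.3 FPKM in Tfam cKO and 25.1 ± 3.90 FPKM in WT (SD, n = 2 each). The groups did not overlap, and the log2 fold change was 1.06 (SE 0.22, limma adjusted p = 0.334). The Cufflinks 95% intervals were 42.0 to 47.5 and 60.4 to 66.7 FPKM in Tfam cKO and 20.8 to 24.0 and 26.2 to 29.6 FPKM in WT, so the libraries of each group differed by more than these intervals. Between the libraries numbered 1 the difference was 0.97, and between those numbered 2 it was 1.16. Read as counting error alone, the Lars2 intervals correspond to 1061 and 1609 fragments in Tfam cKO and 755 and 1126 in WT. Those of Aars correspond to 891 and 1273 in Tfam cKO and 561 and 736 in WT. In both numbers Lars2 thus rose less in fragments than in FPKM, and less in fragments than Aars. Fragments are not scaled to the mapped total of a library. Between the libraries numbered 1, Aars also rose less in fragments than in FPKM. The cause was not tested. Without Tfam cKO 1, Lars2 passed the threshold (log2 fold change 1.31, limma adjusted p = 0.00267), the lone Tfam cKO library being assumed to vary like WT. In mouse RNA sequencing Lars2 is known as a gene whose counts can include reads of ribosomal RNA. Rn45s, the precursor of ribosomal RNA, was at 452 and 314 FPKM in Tfam cKO and at 233 and 202 FPKM in WT (log2 fold change 0.79, limma adjusted p = 0.581). The 2 genes had the same order of groups but opposite orders within each group, since Lars2 was higher and Rn45s lower in the library numbered 2. Rn45s was chosen after its values were seen, and the part of ribosomal RNA in the Lars2 value was not tested.

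**Figure D3:**
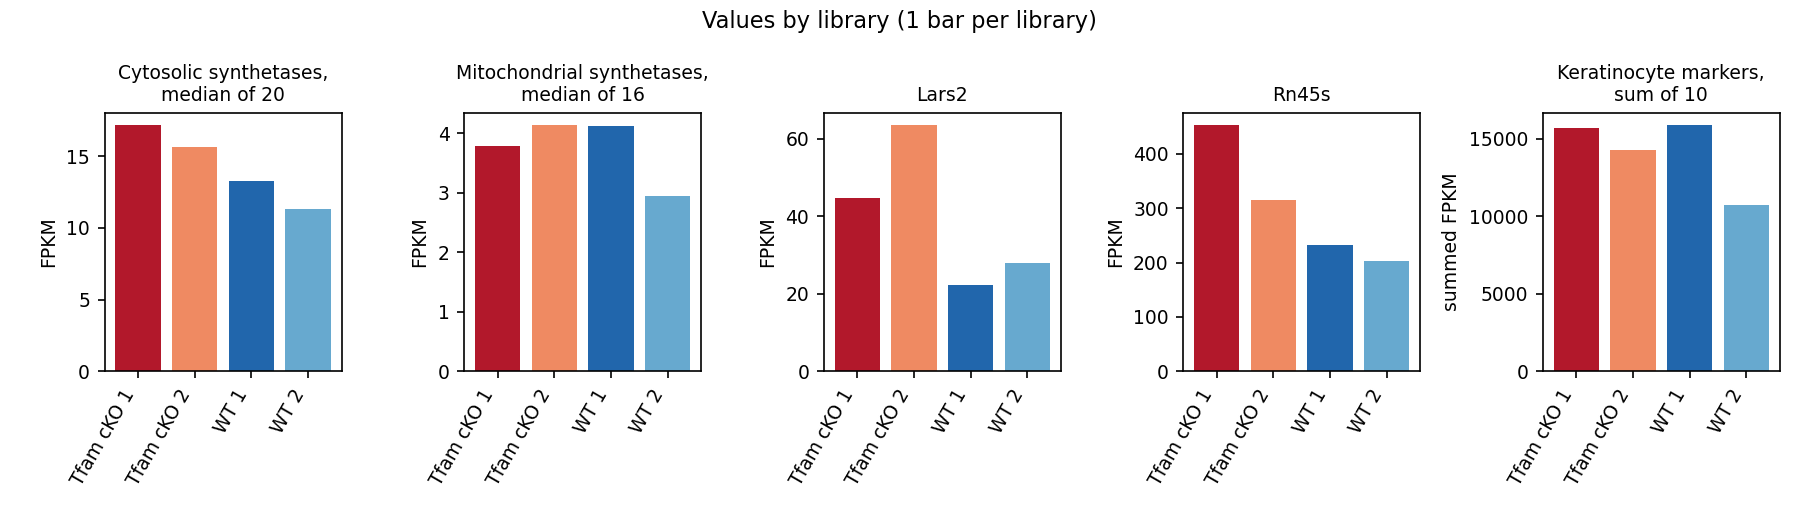
Median FPKM of the 20 cytosolic and of the 16 mitochondrial synthetases, FPKM of Lars2 and of the ribosomal RNA precursor Rn45s, and the summed FPKM of 10 keratinocyte markers, 1 bar per library. Lars2 and Rn45s are both higher in Tfam cKO, with Lars2 highest in Tfam cKO 2 and Rn45s highest in Tfam cKO 1.

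Among the other mitochondrial genes, 3 of the tested ones had separate groups with Tfam cKO higher. Yars2, the tyrosyl enzyme, was at 5.32 and 5.52 FPKM in Tfam cKO and at 5.09 and 2.88 FPKM in WT (log2 fold change 0.40, limma adjusted p = 0.869), with a difference of 0.05 for number 1 and of 0.75 for number 2. Fars2, the phenylalanyl enzyme, was at 10.4 and 10.5 FPKM in Tfam cKO and at 8.34 and 8.04 FPKM in WT (0.32, limma adjusted p = 0.846), with close libraries in both groups. Mars2, the methionyl enzyme, was at 1.73 and 1.80 FPKM in Tfam cKO and at 1.45 and 1.69 FPKM in WT (0.11). Groups were separate with Tfam cKO lower for 2 of the 13, against 9.75% of all genes. Vars2, the valyl enzyme, was at 1.70 and 1.74 FPKM in Tfam cKO and at 1.94 and 2.41 FPKM in WT (log2 fold change −0.22, limma adjusted p = 0.923). Wars2, the tryptophanyl enzyme, was at 1.56 and 1.53 FPKM in Tfam cKO and at 1.66 and 1.68 FPKM in WT (−0.07). After rescaling to equal totals, Lars2 and Fars2 remained higher and Vars2 and Wars2 lower, Yars2 and Mars2 overlapped, and Cars2 and Iars2 were lower as well. Of all genes, 14.3% were then higher and 19.8% lower.

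The other 7 tested mitochondrial genes, Aars2, Cars2, Hars2, Iars2, Rars2, Sars2 and Tars2, had overlapping groups and log2 fold changes between −0.09 and 0.15. Iars2, the isoleucyl enzyme, with only Lars2 and Fars2 above it in level among the mitochondrial genes, was at 8.55 and 8.85 FPKM in Tfam cKO and at 10.2 and 8.51 FPKM in WT (−0.09). Its model overlaps that of Rab3gap2 by 86 bases in the files. Rars2, the arginyl enzyme, had the widest spread, at 4.78 and 4.44 FPKM in Tfam cKO, which lay between 6.67 FPKM in WT 1 and 3.02 FPKM in WT 2. Of the untested genes, Nars2 was at 0.803 and 1.01 FPKM in Tfam cKO and 0.918 and 0.828 FPKM in WT, and Ears2 at 0.856 and 0.587 FPKM in Tfam cKO and 0.803 and 0.677 FPKM in WT. Pars2 was at 0.294 and 0.238 FPKM in Tfam cKO and at 0.104 and 0.0570 FPKM in WT, values that rest on 5 and 8 fragments in Tfam cKO and on 2 and 1 in WT. The lower bounds of its intervals were 0.0308 and 0.0674 FPKM in Tfam cKO, and both WT intervals reached 0.

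The contrast between the compartments was then taken within each library. The mean log2(FPKM + 1) of the 16 mitochondrial genes minus that of the 20 cytosolic genes was −1.88 and −1.72 in Tfam cKO and −1.71 and −1.59 in WT, so the compartments stood further apart in Tfam cKO by 0.15 on average, with Tfam cKO 2 and WT 1 at nearly the same value. Without Lars2 the values were −2.10 and −1.97 in Tfam cKO and −1.87 and −1.77 in WT, and the groups did not overlap. Leaving Lars2 out of this contrast was not planned, and Lars2 is the mitochondrial gene with the largest rise. The median log2 fold change of the mitochondrial genes was 0.22 below that of the cytosolic genes, and 0.24 below without Lars2. The same quantity was −0.31 for the libraries numbered 1 and −0.28 for those numbered 2. It was also nearly the same after rescaling to equal totals (−0.22), which moves both compartments together. No p is given for these scores, and a comparison of 2 against 2 libraries could not fall below 0.05 in an exact permutation test.

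Amino acid by amino acid, the mitochondrial gene had the smaller log2 fold change in 11 of 14 pairs with both genes tested, and the median gap was −0.21. Of the 11, tyrosine was nearly a tie, with a gap of −0.002. At a pseudocount of 0.1 its order turned, with 0.49 for Yars2 and 0.44 for Yars. The widest gap in that direction was for alanine, with 0.01 for Aars2 and 0.67 for Aars. Aars2 was at 3.63 and 3.10 FPKM in Tfam cKO and at 3.16 and 3.52 FPKM in WT, so its groups overlapped. Signs were opposite in 6 pairs, each with a negative mitochondrial and a positive cytosolic value. By size of gap these were led by Cars2 (−0.05) with Cars (0.39), Vars2 (−0.22) with Vars (0.21), Tars2 (−0.05) with Tars (0.28) and Iars2 (−0.09) with Iars (0.13). Cars2, the mitochondrial cysteinyl enzyme, was at 5.66 and 5.62 FPKM in Tfam cKO and at 6.47 and 5.29 FPKM in WT. Iars, the cytosolic isoleucyl enzyme, was at 6.82 and 5.64 FPKM in Tfam cKO and at 5.35 and 5.81 FPKM in WT, with overlapping groups. Tars2, for threonine, was at 6.93 and 5.92 FPKM in Tfam cKO and at 7.92 and 5.57 FPKM in WT. The gap ran the other way for leucine, where Lars2 exceeded Lars by 1.04, and for phenylalanine, where Fars2 exceeded Farsa by 0.11 and Farsb by 0.13.

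**Figure D4:**
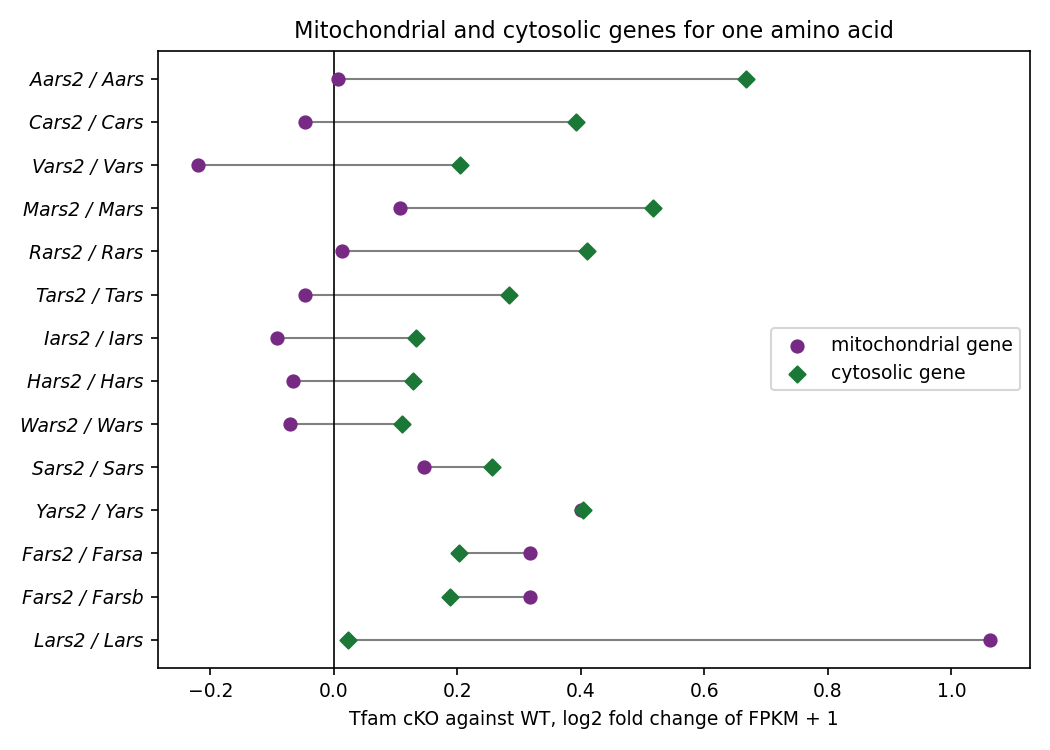
Log2 fold change of FPKM + 1, Tfam cKO against WT, of the mitochondrial gene (circle) and the cytosolic gene (diamond) for the same amino acid, in the 14 pairs with both genes tested, ordered by the gap. The circle lies left of the diamond in 11 pairs and right of it for Fars2 with either cytosolic subunit and for Lars2. For Yars2 with Yars the 2 nearly coincide (gap −0.002).

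Genes that work beside the mitochondrial synthetases showed no call either, and the counts of separate groups below stand against 25.4% of all genes higher and 9.75% lower. The 4 tested genes of amidation and formylation of charged mitochondrial tRNA had a median log2 fold change of −0.11, with separate groups and Tfam cKO lower for 2 of 4. Gatc, a subunit of the amidotransferase that makes glutaminyl-tRNA after Ears2 has charged it with glutamate, was at 5.60 and 6.16 FPKM in Tfam cKO and at 8.80 and 6.35 FPKM in WT (log2 fold change −0.30, limma adjusted p = 0.882). Qrsl1, its catalytic subunit, was at 3.19 and 2.41 FPKM in Tfam cKO and at 3.16 and 2.15 FPKM in WT. For 12 genes of mitochondrial tRNA processing and modification the median was 0.09, with 4 higher (33.3%) and 0 lower. Hsd17b10, a subunit of mitochondrial RNase P, was at 30.5 and 31.8 FPKM in Tfam cKO and 31.8 and 27.0 FPKM in WT, and the pseudouridine synthase gene Pus1 at 11.8 and 11.8 FPKM in Tfam cKO and 9.08 and 9.76 FPKM in WT. For 8 tested mitochondrial translation factors the median was 0.14, with 2 higher and 0 lower. Tufm, the elongation factor that brings charged tRNA to the mitochondrial ribosome, was at 11.2 and 10.4 FPKM in Tfam cKO and 8.89 and 6.59 FPKM in WT (0.44, limma adjusted p = 0.788), and Gfm1, the translocation factor, at 6.99 and 7.96 FPKM in Tfam cKO and 8.52 and 5.07 FPKM in WT.

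On the cytosolic side, the 5 elongation factor genes had a median of 0.20, with 1 higher and 0 lower. Eef1a1, which delivers charged tRNA to the cytosolic ribosome, was at 3484 and 3620 FPKM in Tfam cKO and 3506 and 2740 FPKM in WT, and Eef2, the translocase, at 1016 and 918 FPKM in Tfam cKO and 781 and 713 FPKM in WT. The 8 genes of proofreading and export of tRNA had a median of 0.25, with 4 higher and 2 lower. Aarsd1, related to the editing domain of the alanyl enzyme, was at 12.6 and 11.5 FPKM in Tfam cKO and at 13.4 and 7.21 FPKM in WT.

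The 16 tested genes of the response to amino acid shortage had a median of 0.30, with 7 higher and 0 lower. Eif2ak4, the sensor kinase for uncharged tRNA, was at 5.13 and 4.87 FPKM in Tfam cKO and at 4.95 and 5.26 FPKM in WT, and its groups overlapped (log2 fold change −0.03). Atf4 was at 474 and 458 FPKM in Tfam cKO and at 338 and 397 FPKM in WT (0.35, limma adjusted p = 0.873). Asns, the asparagine synthetase gene, was at 15.9 and 13.4 FPKM in Tfam cKO and at 9.85 and 6.68 FPKM in WT (0.78, limma adjusted p = 0.536). Ppp1r15a, which encodes a phosphatase subunit that ends the response, was at 346 and 291 FPKM in Tfam cKO and at 230 and 348 FPKM in WT. No gene of any of these lists passed the test, and the lists and members were chosen with results of these data known.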

How the data were processed

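Langerhans cells were sorted from epidermal suspensions, and total RNA was taken with Trizol and made into NEBNext Ultra libraries, per the labels' protocols. The authors deposited 1 table per library with FPKM per gene and its 95% interval from Cufflinks, per the file headers. Per the submitters' processing notes, CASAVA, Cufflinks and the build mm10 were used. Their versions, the aligner and the annotation are not stated there. Gene coordinates in the tables differ from those of GRCm38 (mm10), so the build behind them is not settled. They were used only to find gene models that overlap within the tables.

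FPKM of symbols listed at several loci were summed (301 of 24441; no synthetase). Symbols whose 4 libraries averaged 1 FPKM or more (10910) went into a test with limma 3.58.1 (R 4.3.3) on log2(FPKM + 1), with genotype as the only term, a mean trend in the variances and Benjamini-Hochberg adjustment at 0.05. The test was also run on simulated data. Cufflinks' interval spans 2 standard errors to each side. The fragments behind a value were worked out from it as if it held counting error only. The fragment numbers are not scaled to library depth. For Lars2 they rose less than for Aars, while FPKM rose more. The Lars2 interval may thus hold more than counting error, which was not tested.

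The members and gene lists were chosen with earlier results of these data known. Values per library are given for genes with separate groups (up to 8 of each compartment), for the 3 of highest level in each, for the 4 pairs of opposite sign with the widest gap, and for Tfam, Atf4, Asns, Eif2ak4 and the 2 genes of highest level in each other list. Kars, Wars, Aars2, Rars2, Nars2, Ears2, Pars2, Ddit3, C77080, Rn45s and the markers named were chosen outside that rule, after their values were seen. Promoters are RefSeq's (GRCm38.p6). A few items are not reported here. Alternatives were equal totals of 1000000 (TPM), quantile normalization, pseudocounts of 5 and 0.1, a mean of 5 FPKM or no minimum, variances without the trend, robust moderation, a replicate term, the highest locus, other member sets and leaving out each library. Figures used matplotlib 3.10.9 under Python 3.11.15.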

Additional observations from a re-analysis of the deposited data

How the results depend on the processing

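Beside the 2 genes higher and 0 lower over all genes, the counts were 0 and 0 with no filter, 1 higher with a filter at 5 FPKM or a pseudocount of 5, 1 lower with no mean trend and 2 lower with robust moderation. Leaving out 1 library gave 12 to 63 higher and 3 to 40 lower, with a lone library assumed to vary like the other group, and 0 to 1 synthetases past the threshold (Lars2 without Tfam cKO 1). With the replicate number as a block, 145 genes were higher and 39 lower, and 2 synthetases passed, Aars (adjusted p = 0.0306) and Lars2 (0.000108). The numbers are not known to mark shared mice, libraries of the same number deviated together with r = 0.255 over genes, and that fit rests on fewer residual degrees of freedom. The cytosolic median of 0.22 became 0.11 at equal totals and ranged from 0.17 to 0.38 with a library left out. The mitochondrial minus cytosolic median of −0.22 was −0.17 after quantile normalization and −0.27 with the filter at 5 FPKM, and ranged from −0.30 to −0.21 with a library left out. Of 33 tested synthetases, 20 kept their sign under every alternative run. Small values changed sign at equal totals for Dars (−0.013), Lars (−0.092), Aars2 (−0.10) and Rars2 (−0.086), after quantile normalization for Lars (−0.070), Aars2 (−0.042) and Rars2 (−0.050), and at a pseudocount of 5 for Rars2 (−0.010). With 1 library left out, values of both signs were found for Dars (−0.17 to 0.38), Eprs (−0.30 to 0.050), Hars (−0.040 to 0.30), Kars (−0.17 to 0.43), Lars (−0.22 to 0.27), Wars (−0.041 to 0.26), Aars2 (−0.082 to 0.095), Cars2 (−0.17 to 0.077), Hars2 (−0.23 to 0.096), Iars2 (−0.21 to 0.029), Rars2 (−0.45 to 0.48), Sars2 (−0.057 to 0.35) and Tars2 (−0.27 to 0.17). The cause of these shifts was not tested. Total read depth is unknown, and of the synthetases Pars2 is limited most by it, at 1 to 8 fragments per library.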
